A study of Mus musculus with 5 samples.

Results

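A group of 8 genes of the p53 pathway and of cell senescence was followed through mouse kidneys during and after ureteric obstruction. They were chosen by symbol, and all 8 of the listed symbols were found among the 28692 gene entries that the 4 droplet libraries share. The genes are Trp53, which encodes the transcription factor p53, its regulator Mdm2, the cell cycle genes Cdkn1a, Ccng1 and Cdkn2a, the secreted factor Gdf15, and the death and stress genes Bax and Trp53inp1.

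The study profiled single cells of whole C57/BL6 kidneys from mice aged 8 weeks, with 3 mice pooled into each library. The groups were sham surgery, taken as day 0, unilateral ureteric obstruction (UUO) at day 2 and at day 7, and an obstruction that had been relieved 7 days before, which the labels call experimental day 14. Kidneys were digested on ice, live cells were sorted by exclusion of the dye DAPI, and droplet 3′ libraries were made. With 1 library per time point no test between time points was possible, so intervals below cover counting error only and library and time point cannot be told apart.

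In unstressed cells p53 protein is kept low by Mdm2, a ubiquitin ligase that is itself a p53 target and so closes a feedback loop. When DNA damage or other stress frees p53, it switches on genes that halt the cell cycle, such as Cdkn1a (p21), and genes that favour cell death, such as Bax. Cdkn1a and Cdkn2a (p16 and Arf) also mark senescence, a lasting arrest in which cells secrete inflammatory factors, and in kidney tubules such an arrest has long been studied as a response to injury.

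The genes lie on separate chromosomes or far apart, in the GENCODE annotation of GRCm38. Cdkn1a spans chr17:29090976-29100727 on the plus strand, Gdf15 chr8:70629393-70632456 on the minus strand and Trp53 chr11:69580359-69591873 on the plus strand. Mdm2 spans chr10:117688875-117710758, Ccng1 chr11:40748552-40755311 and Bax chr7:45461697-45466898, all on the minus strand. Cdkn2a spans chr4:89274471-89294653 on the minus strand and Trp53inp1 chr4:11156431-11174379 on the plus strand.

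Since several of the genes are known p53 targets, their promoters were read for the letters that p53 recognises. RefSeq (GRCm38.p6) gave 10 start-site windows of 300 bases for 7 of the 8 genes, each running from 250 bases before the start. They were searched for the p53 decamer pair without a spacer, 20 letters with at most 1 letter off and the core C and G of each decamer kept. The pair is its own reverse complement, so both strands were covered, and the limit of 1 letter was chosen after the Cdkn1a window had been read. Matches lay in 1 window each of Cdkn1a and Ccng1, 51 and 195 bases before the start of that window. For Cdkn1a this was the window chr17:29090729-29091028. Its other start-site window, further along the gene at chr17:29093519-29093818, held no match. Over all promoters, 22 of 32851 windows (0.067%) held a match. Both stretches are shown in the direction of transcription, with the matched letters in capitals, from chr17:29090908-29090967 on the plus strand and chr11:40755442-40755501 on the minus strand.
Cdkn1a: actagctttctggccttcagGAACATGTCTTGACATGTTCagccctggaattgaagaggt
Ccng1: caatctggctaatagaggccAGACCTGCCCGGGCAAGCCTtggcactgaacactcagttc
The match is a description of these letters and not a measured binding site.

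Of the deposited cells, 3746 of 5938 were kept for sham, 2159 of 2739 for day 2, 4287 of 4504 for day 7 and 3140 of 3695 for the reversed library. They held a median of 2659.5 to 6562 UMIs (unique molecular identifiers, one for each RNA molecule counted), lowest in sham, and a median of 2.96% (day 7) to 33.7% (sham) of mitochondrial UMIs. Library pairs shared 16 to 39 cell barcodes. Clusters were named from marker genes: Lrp2 was detected in 73.8% to 86.8% of proximal tubule cells, Pecam1 in 83.1% to 98.8% of endothelial cells and Csf1r in 60.9% to 87.2% of phagocytes. Collecting duct principal cells had an Aqp2 UMI in 97.0% of sham cells and in 63.2%, 31.7% and 45.2% of those at day 2, day 7 and after reversal. The proximal tubule counted 3018, 630, 260 and 1114 cells in sham, day 2, day 7 and reversed libraries, and the other tubule segments together 376, 618, 628 and 541. Endothelium had 172, 84, 394 and 308 cells and phagocytes 69, 538, 2340 and 637.

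Levels are a gene's share of all UMIs of a class in a library, scaled to a common total (CPM), and are given in the order sham, day 2, day 7, reversed. A ratio is the log2 of CPM plus 1 in both libraries, with the 95% counting interval of the plain ratio in brackets. It is called past 2-fold when it is at least 1 in size and its interval leaves out 0, for genes with at least 10 UMIs over both libraries. Over all kept cells Bax had 12724 UMIs, Cdkn1a 7910, Trp53 4661, Ccng1 4638, Mdm2 2417, Gdf15 1648, Trp53inp1 1058 and Cdkn2a 109.

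**Figure D1:**
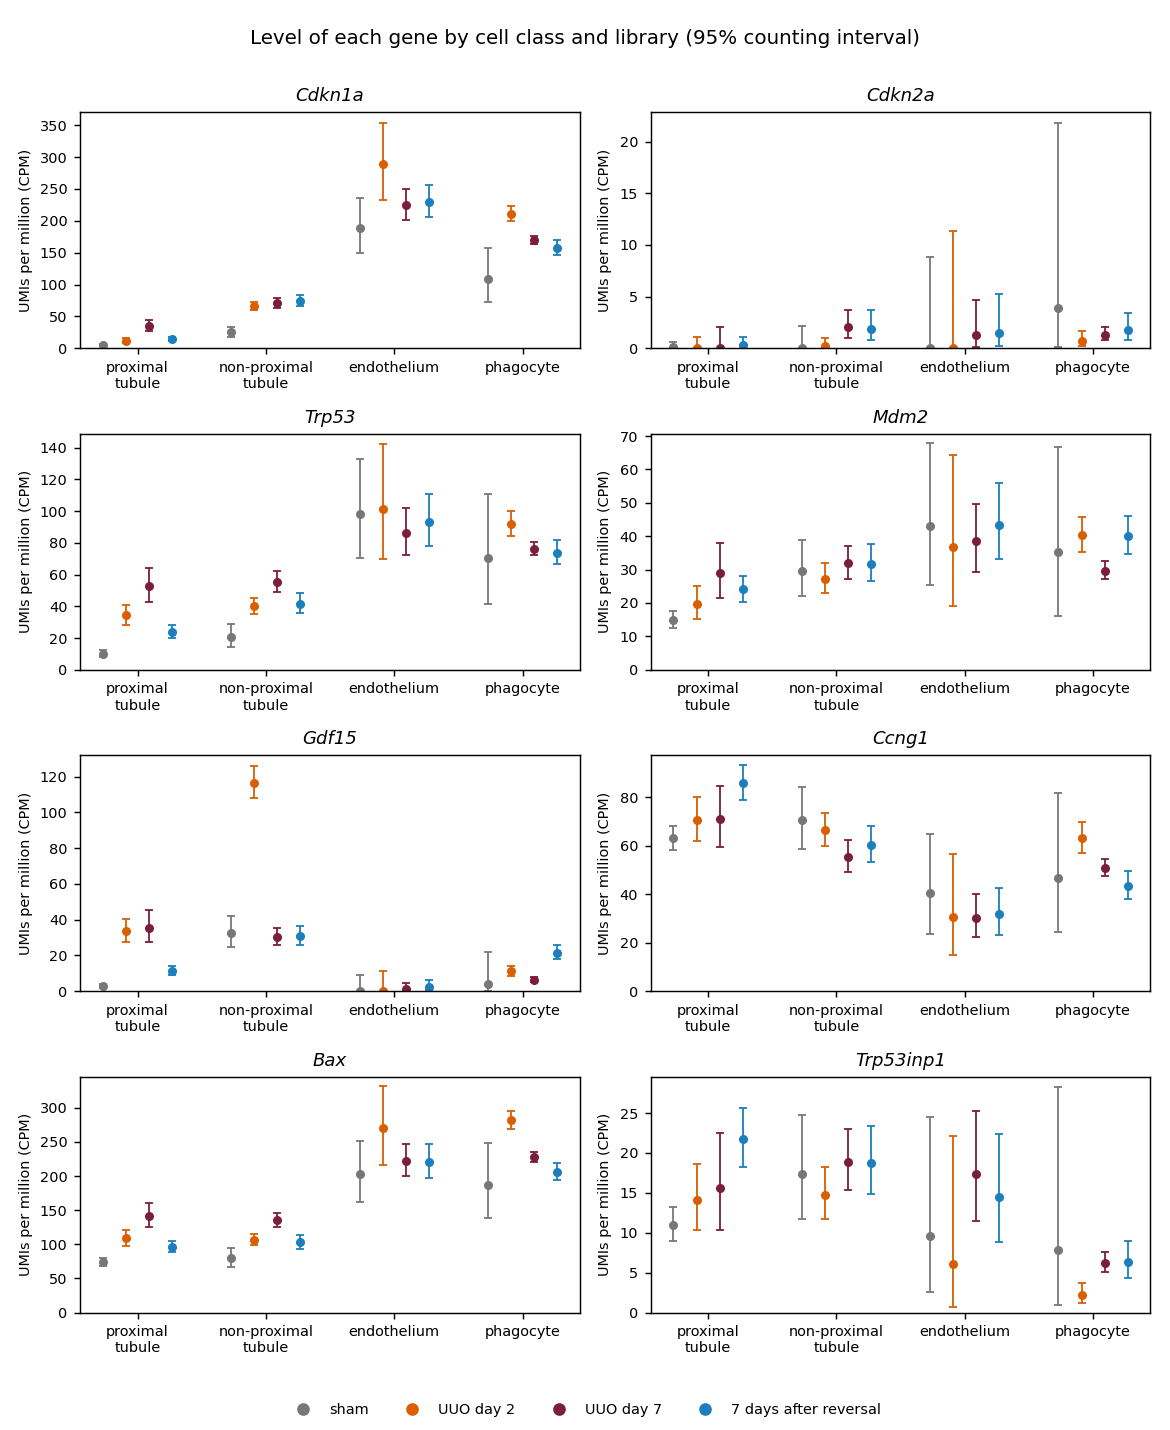
Level of each of the 8 genes in CPM, by library, in the proximal tubule, the other tubule segments, the endothelium and the phagocytes; bars are exact Poisson 95% intervals, which cover counting error only. Cdkn1a was lowest in the proximal tubule of every library, Gdf15 peaked at day 2 in the other tubule segments and stayed at or near 0 in endothelium, and Cdkn2a rested on few UMIs in every class.

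Trp53 was higher in the proximal tubule of the obstructed libraries than in that of sham, while in endothelium the intervals of all 4 libraries overlapped. In the proximal tubule it stood at 10.1, 34.3, 52.75 and 23.9 CPM, from 97, 117, 95 and 152 UMIs. The day 7 library was highest and sham lowest, and no interval of the 3 obstructed or reversed libraries reached that of sham. The ratio was 1.67 [1.36, 2.16] from sham to day 2 and 0.61 [0.21, 1.02] from day 2 to day 7. The reversed library stood at -1.11 [-1.52, -0.76] against day 7 and at 1.16 [0.86, 1.62] against sham. These last 2 kept their calls in 4 and in 6 of 12 alternative settings, down to -0.59 and 0.75. The other tubule segments had Trp53 at 20.8, 39.9, 55.3 and 41.6 CPM, again lowest in sham and highest at day 7, and no step passed 2-fold there (day 2 against sham, 0.91 [0.43, 1.49]). Among them the thick ascending limb had 7.75, 35.9, 55.3 and 36.2 CPM, from 5 UMIs in sham, with ratios against sham of 2.08 [0.93, 3.87] at day 2 and 2.09 [0.91, 3.91] after reversal. Principal cells of the collecting duct had 20.2, 45.4, 62.9 and 65.0 CPM, from 7 UMIs in sham, with ratios against sham of 1.13 [0.04, 2.55] at day 2 and 1.64 [0.57, 3.06] after reversal, which fell to 0.19 with at most 20% mitochondrial UMIs and 0.16 with the per-cell marker gate and kept their calls in 4 and 8 of 11 alternative settings. In the thin limb, at 57.8, 59.5, 70.4 and 52.5 CPM, and in intercalated cells, at 24.3, 33.4, 39.1 and 35.7 CPM, the intervals of all 4 libraries overlapped. Endothelium had 97.95, 101, 86.1 and 93.3 CPM and phagocytes 70.3, 92.1, 76.4 and 73.75 CPM. T cells, which lie outside the classes compared, had more than any of these, at 171, 154 and 131.5 CPM at day 2, day 7 and after reversal.

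Mdm2, whose product marks p53 for degradation, did not pass 2-fold in any of the 4 classes. Its level was 14.9, 19.6, 28.9 and 24.1 CPM in the proximal tubule and 29.5, 27.2, 31.9 and 31.7 CPM in the other segments. Endothelium stood at 43.0, 36.8, 38.55 and 43.4 CPM and phagocytes at 35.1, 40.2, 29.7 and 40.05 CPM. In the proximal tubule the reversed library was at 0.65 [0.35, 1.03] against sham. Trp53 and Mdm2 thus parted in the proximal tubule at day 2, where the ratio of Mdm2 was 0.37 [-0.05, 0.82], and the difference between the genes was not tested.

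Cdkn1a, the cyclin-dependent kinase inhibitor p21, differed widely between cell classes. The proximal tubule had 5.43, 12.0, 34.4 and 14.95 CPM, from 52, 41, 62 and 95 UMIs, against 189, 289, 225 and 230 CPM in endothelium and 109, 211, 170 and 158 CPM in phagocytes. In the proximal tubule the 4 libraries did not overlap except for day 2 and reversed. The ratio was 1.02 [0.52, 1.76] from sham to day 2 and 1.44 [0.93, 2.12] from day 2 to day 7, and the reversed library was at -1.15 [-1.68, -0.72] against day 7 and 1.31 [0.96, 1.98] against sham. The day 2 step kept its call in 3 of 12 alternative settings and was -2.11 after an estimate of free RNA had been taken off. That estimate left nothing at day 2, so the size of this ratio was set by the pseudocount. The step from day 7 to reversal kept its call in 6 of 12 and was 0.155 with cells of at most 20% mitochondrial UMIs, and the ratio of reversed to sham kept its call in 7 of 12.

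Other cell classes held far more Cdkn1a than the proximal tubule, so values on free RNA and on RNA of other cells are given beside it. Free RNA was estimated to give 2.58, 15.9, 24.1 and 10.1 CPM of Cdkn1a there, and 3.31, 0, 12.45 and 5.41 CPM were left after subtraction. All 17 phagocyte markers but 2 in sham and 1 at day 2 had UMIs in proximal tubule sums, and together they stood at 69.3, 525, 2400 and 871.5 CPM, against 20290 to 28240 CPM in phagocytes. The list of dissociation and immediate-early genes, which respond to tissue digestion among other stimuli, summed to 54.9, 377, 1529 and 409 CPM over 9 genes in the proximal tubule. Both sums followed the library order of Cdkn1a, and their part in the result was not tested.

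The same gene was also higher after obstruction in the thick ascending limb, the collecting duct and the intercalated cells, where sham levels were low and rested on few UMIs. In the thick ascending limb it had 4.65, 37.2, 43.0 and 59.5 CPM, from 3, 88, 70 and 87 UMIs, a ratio of 2.76 [1.40, 5.30] at day 2 and of 3.42 [2.08, 5.98] after reversal, both against sham. Principal cells of the collecting duct had 5.76, 49.4, 73.8 and 79.8 CPM, from 2, 63, 150 and 81 UMIs, and ratios of 2.90 [1.19, 6.18] and 3.58 [1.89, 6.86]. In both segments every obstructed or reversed library lay above the sham interval, and the reversed library was not below day 7. The free RNA estimate left 3.27, 29.3, 27.85 and 54.7 CPM of Cdkn1a in the thick ascending limb and 4.54, 42.8, 61.8 and 77.7 CPM in the collecting duct. When cells were assigned by their own marker UMIs in place of clusters, the collecting duct ratio for reversed against sham was 0.01.

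Intercalated cells, the acid-base regulating cells of the duct, had their highest Cdkn1a level at day 2, with 24.3, 125, 67.3 and 55.4 CPM and a day 2 ratio of 2.31 [1.40, 3.51]. The thin limb differed from these segments in that sham was already at 133 CPM, followed by 75.7, 197 and 276 CPM, and the intervals of sham and day 2 overlapped. The dissociation and immediate-early list summed to 4651 to 6907 CPM in thin limb cells of all 4 libraries, against 130, 472, 837 and 1744 CPM in the thick ascending limb, and their part in the Cdkn1a levels was not tested. At day 7 the order ran from endothelium and thin limb through phagocytes to collecting duct, intercalated cells, thick ascending limb and proximal tubule. Of neighbours in that order, phagocytes and collecting duct alone had intervals that did not overlap. Summed over all segments other than the proximal tubule, Cdkn1a was at 25.5, 66.1, 71.0 and 74.5 CPM, with ratios of 1.34 [0.92, 1.86] at day 2 and 1.51 [1.09, 2.04] after reversal, both against sham. The day 2 ratio was 0.10 with cells of at most 20% mitochondrial UMIs, and the reversed ratio 0.40 with the per-cell marker gate.

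**Figure D2:**
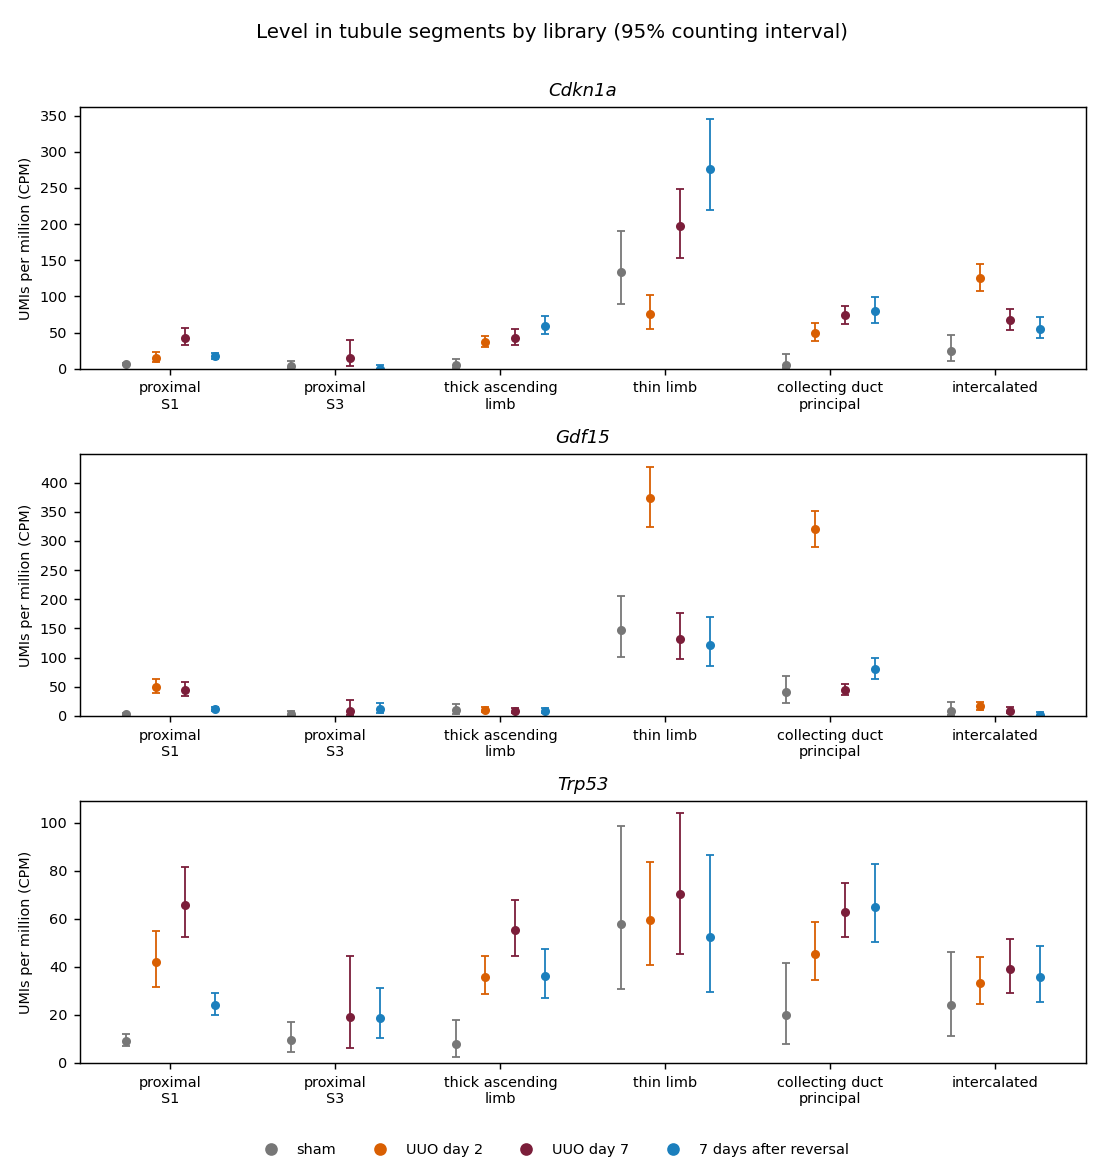
Level of member genes in CPM in each tubule segment and library, for segments with at least 30 cells in a library; bars are exact Poisson 95% intervals for counting error. Cdkn1a of the thick ascending limb and collecting duct was at 4.65 and 5.76 CPM in sham and at 59.5 and 79.8 CPM after reversal, while Gdf15 of thin limb and collecting duct peaked at day 2 with 373 and 319.7 CPM.

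The share of cells with a Cdkn1a UMI was lower in both tubule classes than in endothelium and phagocytes. With each cell thinned to 1000 UMIs, 0.53%, 0.952%, 3.46% and 0.628% of proximal tubule cells had one, and 1.16%, 5.4%, 15% and 4.13% did before thinning. The other segments had shares of 1.86%, 4.37%, 3.98% and 5.18%, endothelium 12.2%, 23.8%, 14% and 11%, and phagocytes 11.6%, 16.5%, 12.6% and 11.9%. Before thinning these were 5.32%, 25.7%, 28.5% and 24.4% in the other segments, 22.7%, 47.6%, 36.8% and 37% in endothelium, and 21.7%, 61.7%, 41.2% and 40% in phagocytes. T cells, for comparison, had 4.46%, 2.43% and 4.12% at day 2, day 7 and after reversal. At 1000 UMIs per cell the reversed proximal tubule share lay below that of T cells without overlap of the intervals. From day 2 on the intervals of the other segments overlapped those of T cells at that depth, so no expression is read from the tubule shares. At 2000 UMIs per cell the other segments had 9.87%, 11.6% and 9.8% from day 2 on, against 7.14%, 4.86% and 4.87% of T cells. T cells held Cdkn1a UMIs themselves and are no measure of its absence. Cells with and without a Cdkn1a UMI were also compared for Gdf15, Mdm2, Ccng1, Bax and any of 10 cell cycle genes. In 0 of 11 sets of class and library did their intervals part for any of these. The sets held 16 to 296 cells with a Cdkn1a UMI, so smaller differences were not detectable. The proximal tubule was among them in sham alone. Its day 2, day 7 and reversed libraries, with 6, 9 and 7 such cells, were not compared. Sham cells of the other segments and sham phagocytes were not compared either. In endothelium no cell of either kind had a Gdf15 UMI, so those intervals could not part.

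Ccng1, the p53 target cyclin G1, showed smaller steps than Cdkn1a in the proximal tubule, and the difference between the genes was not tested. It had 63.0, 70.65, 71.1 and 85.9 CPM in the proximal tubule and 70.6, 66.4, 55.5 and 60.4 CPM in the other segments, and it did not pass 2-fold in any of the 4 classes. Its order over classes was unlike that of Cdkn1a. Endothelium, which had the most Cdkn1a of the 4 classes, had 40.6, 30.7, 30.2 and 31.8 CPM, and intercalated cells, at 127, 94.1, 79.8 and 85.7 CPM, were among the highest. Over 48 sums of class and library, which share libraries and depth, Pearson's correlation of the log2 levels of the 2 genes was -0.612. These are the genes whose promoters, printed earlier, hold a match to the p53 decamer pair.

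Cdkn2a, the locus of p16 and Arf and a common marker of senescent cells, was near the limit of what this depth can show. Proximal tubule cells held 1, 0, 0 and 2 UMIs of it among 9572388, 3411224, 1801039 and 6354304, where 3 UMIs at the days of obstruction would be 0.879 and 1.67 CPM. The other segments held 0, 1, 11 and 8 UMIs, endothelium 0, 0, 2 and 2, and phagocytes 1, 4, 22 and 9. The step from 0.176 to 2.08 CPM in the other segments at day 7 passed 2-fold, at 1.39 [0.78, 8.99] from 12 UMIs in all, and kept its call in 8 of 12 alternative settings. The collecting duct after reversal, at 6.90 CPM from 7 UMIs, and the fibroblast or mural cells at day 7, at 13.1 CPM from 10 UMIs, had the highest levels among the named classes outside the immune cells, and unnamed clusters were not compared. Before thinning these UMIs lay in 4.03% of 124 and in 8.64% of 81 cells. T cells were at 8.33, 8.29 and 4.05 CPM from day 2 on.

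Gdf15, a secreted stress factor of the TGF-beta superfamily, had the largest step of any member in the 4 classes, and its highest levels were in tubule cells. The proximal tubule had 2.82, 33.4, 35.5 and 11.3 CPM, from 27, 114, 64 and 72 UMIs, and the other segments 32.4, 116.5, 30.4 and 30.8 CPM, from 56, 663, 161 and 131 UMIs. Endothelium held 0, 0, 2 and 3 UMIs and 0 of its 172, 84, 394 and 308 cells had a Gdf15 UMI at 1000 UMIs per cell. The time course differed between the tubule classes: the proximal tubule was as high at day 7 as at day 2, and the other segments were back within the sham interval by day 7, a difference that was not tested. Ratios in the proximal tubule were 3.17 [2.95, 4.23] from sham to day 2, 0.09 [-0.38, 0.54] from day 2 to day 7 and -1.57 [-2.16, -1.14] from day 7 to reversal, which left 1.69 [1.35, 2.70] against sham. In the other segments the same steps were 1.81 [1.45, 2.27], -1.91 [-2.20, -1.69] and 0.02 [-0.33, 0.36], which left -0.07 [-0.54, 0.40]. The day 2 step of the proximal tubule kept its call in 12 of 12 alternative settings, between 1.76 and 3.77. Its ratios of reversed against day 7 and against sham each kept their call in 11 of 12. They were -0.70 with at most 20% mitochondrial UMIs and 0.73 with a pseudocount of 10 CPM.

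Within the other segments, the higher Gdf15 level of day 2 lay in the thin limb and the collecting duct. Thin limb cells had 147, 373, 132 and 122 CPM and principal cells 40.3, 319.7, 44.25 and 79.8 CPM, with sham, day 7 and reversed overlapping in the thin limb. Before thinning 23.1%, 63.6%, 27.3% and 11.4% of thin limb cells had a Gdf15 UMI, the last share being of 35 cells with 35 UMIs. The collecting duct ratio was 2.96 [2.22, 3.87] at day 2 against sham and -2.83 [-3.20, -2.52] at day 7 against day 2, and both kept their calls in 11 of 11 alternatives. The thick ascending limb stood at 9.30, 10.1, 7.98 and 8.21 CPM and intercalated cells at 8.10, 16.4, 8.60 and 1.79 CPM, and neither passed 2-fold at day 2. Of principal cells, 3.03%, 16.5%, 2.11% and 4.03% had a Gdf15 UMI at 1000 UMIs per cell, and 7.58%, 49.6%, 15.5% and 16.9% before thinning, beside the 0 endothelial cells at 1000 UMIs. Principal and intercalated cells are neighbours in the same duct, and at day 2 Gdf15 was higher in the former and Cdkn1a in the latter, both without overlap of the intervals.

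Gdf15 in the proximal tubule was also set beside the injury markers Havcr1 (Kim-1) and Krt20. At day 2, the 60 proximal tubule cells with a UMI of either at 1000 UMIs had 90.8 CPM of Gdf15 against 27.5 CPM in the 570 without, a ratio of 1.69 [1.06, 2.35]. At day 7, 50 cells with and 210 without had 65.2 and 25.8 CPM, a ratio of 1.31 [0.58, 2.09]. Cdkn1a was at 31.3 against 10.0 CPM at day 2 (1.55 [0.45, 2.71], from 10 and 31 UMIs) and at 49.5 against 29.5 CPM at day 7 (0.73 [-0.07, 1.53]). Ccng1 was higher with the markers at day 2, at 122 against 65.3 CPM, and lower at day 7, at 47.25 against 78.9 CPM. Trp53 was at 56.3 against 32.0 CPM at day 2 (0.80 [0.002, 1.55]) and at 83.2 against 42.8 CPM at day 7 (0.95 [0.33, 1.58]). Bax had ratios of 0.34 [-0.15, 0.80] and 0.42 [0.02, 0.82]. The intervals of Mdm2 and Trp53inp1 held 0 on both days, and Cdkn2a had 0 UMIs. Cells of 1 library are no replicates, so these are values of the libraries and not tests.

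The cells behind the proximal tubule class were not the same at each time. At day 2, 437 of its 630 cells fell into a cluster led by fibrinogen genes, which held 4 of the 3018 sham cells. At day 7, 141 of 260 were in a cluster with S1 segment markers led by Snhg11, which held 309 of the sham cells. Without the fibrinogen-led cluster, an alternative chosen after seeing the data, the day 2 ratios were 3.77 for Gdf15, 1.89 for Trp53 and 1.26 for Cdkn1a. Within S1 cells Gdf15 was at 3.09, 49.98, 44.7 and 11.1 CPM and Cdkn1a at 6.33, 14.84, 43.2 and 17.7 CPM but the S1 clusters were filled unlike over time. In the Snhg11-led cluster alone, with 309, 153, 141 and 283 cells, Gdf15 was at 5.93, 53.5, 45.7 and 20.1 CPM and Trp53 at 17.1, 43.5, 66.5 and 37.0 CPM, with every later library above the sham interval for both genes. Cdkn1a was at 12.5, 15.04, 44.1 and 28.1 CPM there, and the intervals of sham and day 2 overlapped, so the day 2 step of Cdkn1a was not detectable within that cluster. This cluster was singled out after seeing the data. No cluster met the rule for an injured tubule class.

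Bax, which opens the outer mitochondrial membrane in apoptosis, had higher levels in obstructed tubules but passed 2-fold in none of the 4 classes. It stood at 74.0, 109, 142 and 96.6 CPM in the proximal tubule and at 79.9, 107, 135 and 103 CPM in the other segments. Both classes had sham lowest and day 7 highest, and the day 2 ratio against sham was 0.55 [0.38, 0.74] and 0.42 [0.15, 0.70]. The median ratio over all genes in these comparisons was 0.32 and 0.04, and TMM scaling shifted every ratio by -0.40 and 0.01. Endothelium had 203, 270, 222 and 221 CPM and phagocytes 187, 282, 227.5 and 206 CPM, with day 2 highest in both.

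Trp53inp1, a p53-induced nuclear protein that also takes part in autophagy, was higher in the reversed proximal tubule than in sham, just short of 2-fold. It had 10.97, 14.1, 15.55 and 21.7 CPM there, a ratio of 0.92 [0.61, 1.37] for reversed against sham. The median ratio over all genes in that comparison was 0.30, and TMM scaling shifted every ratio by -0.38. In the Snhg11-led cluster alone Trp53inp1 was at 19.1 CPM in sham and 31.4 CPM after reversal, with overlapping intervals. The other segments had 17.4, 14.8, 18.9 and 18.8 CPM. Endothelium had 9.56, 6.14, 17.35 and 14.5 CPM and phagocytes 7.81, 2.16, 6.25 and 6.34 CPM. The phagocyte ratio at day 7 against day 2 was 1.20 [0.70, 2.49], the only step of this gene past 2-fold in the 4 classes. It kept its call in 8 of 11 alternative settings and was 0.42 with a pseudocount of 10 CPM. T cells after reversal had 62.7 CPM.

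Counted over the genes, the proximal tubule had 3 of 7 tested past 2-fold higher at day 2 against sham (Cdkn1a, Trp53 and Gdf15) and 0 lower, where 12.5% of all genes tested were higher and 1.48% lower. At day 7 against day 2 it was 1 higher (Cdkn1a) and 0 lower of 7, beside 13.2% and 1.36% of all genes. Reversed against day 7 had 0 higher and 3 lower of 7, the same genes as at day 2, beside 1.71% and 12.1%. Reversed against sham had these 3 higher and 0 lower, beside 12.6% and 0.105%. All genes of this class leaned the same way, with a median log2 ratio over all genes tested of 0.32, 0.31, -0.34 and 0.30 in the 4 comparisons, against 0.55, 0.37, -0.55 and 0.92 over the members. TMM scaling takes this lean out, shifting the ratios by -0.40, -0.38, 0.40 and -0.38, and with it 1 member (Gdf15) was lower for reversed against day 7 and 1 (Gdf15) higher for reversed against sham. The median share of mitochondrial UMIs in proximal tubule cells was 35%, 24%, 17.5% and 31.2%, and with cells of at most 20% only Gdf15 was called at day 2 against sham, Trp53 being at 0.72 with 207 sham cells left. With TMM the day 2 ratios of Mdm2, Ccng1 and Trp53inp1 in the proximal tubule changed sign.

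In the other tubule segments 2 of 7 genes were past 2-fold higher at day 2 against sham (Cdkn1a and Gdf15) and 0 lower, beside 6.72% and 4.83% of all genes tested. At day 7 against day 2, 1 of 8 was higher (Cdkn2a) and 1 lower (Gdf15), beside 7.02% and 1.3%. Reversed against day 7 had 0 in either direction of 8, beside 2.35% and 3.14%, and reversed against sham had 1 higher (Cdkn1a) and 0 lower of 7, beside 9.72% and 2.48%. The median over all genes was 0.04, 0.17, -0.03 and 0.20, against 0.42, 0.28, -0.01 and 0.11 over the members. When only cells with at most 20% mitochondrial UMIs were used, Cdkn1a at day 2 against sham was 0.10 and Gdf15 0.72, and 17 of 169 thick ascending limb and 16 of 66 collecting duct cells of sham were left.

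Endothelium had none of the genes past 2-fold in any comparison. Of 5 tested at day 2 against sham 0 were called, where 3.26% of all genes were higher and 3.29% lower. Of 6 tested in each of the others 0 were called, beside 4.03% and 2.47% at day 7 against day 2, 2.56% and 2.33% when the reversed library was set against day 7, and 5.8% and 3.02% when set against sham. The largest ratio of Cdkn1a there was 0.61 [0.17, 1.06], at day 2 against sham. Some intervals reached past 2-fold, as for Mdm2 at -0.22 [-1.41, 0.91] in the same comparison, where day 2 had 84 cells, so a change of that size was not detectable at this depth.

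Phagocytes had 0 of 7 called at day 2 against sham, beside 4.76% higher and 5.72% lower among all genes, with Cdkn1a at 0.94 [0.41, 1.55]. At day 7 against day 2, 1 of 8 was higher (Trp53inp1) and 0 lower, beside 6.72% and 2.52%. Reversed against day 7 had 1 of 8 higher (Gdf15, 1.61 [1.35, 2.15]) and 0 lower, beside 2.79% and 0.686%. That call rested on 1 cluster, not described here by itself: without it Gdf15 was at 12.4 against 6.92 CPM, from 49 and 97 UMIs, a ratio of 0.76 [0.31, 1.35], by a choice made after seeing the data. Reversed against sham had 0 of 8, beside 3.54% and 2.67%, with Gdf15 at 2.21 [-0.04, 7.79] from a single sham UMI. Gdf15 levels in phagocytes were 3.90, 11.1, 6.43 and 21.6 CPM.

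The phagocyte clusters described here differed more in Cdkn1a than the libraries did. At day 7 Cdkn1a was at 416 CPM in the cluster led by Ccl3 and Ccl4, at 317 in that led by Ccl22, at 210.1 in that led by Cd209a, at 109 in that led by Ccl8 and at 34.8 in that led by Xcr1. After reversal the same order held among those measured, with 303, 212, 58.8 and 36.4 CPM in the Ccl3 and Ccl4, the Cd209a, the Ccl8 and the Xcr1 clusters. The clusters were not filled alike over time, since the Ccl8 cluster held 1180 of the 2340 phagocytes of day 7 and 24 of the 538 of day 2. Within the Cd209a cluster Cdkn1a was at 183, 210.1 and 212 CPM at day 2, day 7 and after reversal, with overlapping intervals. From day 7 to reversal it went from 109 to 58.8 CPM in the Ccl8 cluster and from 416 to 303 CPM in the Ccl3 and Ccl4 cluster. In the Xcr1 cluster it was at 34.8 and 36.4 CPM. Gdf15 was at 41.3 and 42.5 CPM at day 7 and after reversal in the cluster led by Ccl3 and Ccl4, against 5.01 and 8.93 CPM in the Ccl8 cluster. Few cells carried it. The Ccl3 and Ccl4 cluster had 53 and 29 UMIs, in 7.28% of 206 and 7.55% of 106 cells before thinning. In the Ccl8 cluster these shares were 1.78% and 2.75%. The Ccl3 and Ccl4 cluster also had the highest sums of the dissociation and immediate-early genes among the clusters described here and that led by Chil3, at 8758 CPM at day 7 and 13290 CPM after reversal, against 1049 to 4651 CPM in the others at these times, and their part in the Cdkn1a and Gdf15 levels was not tested.

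**Figure D3:**
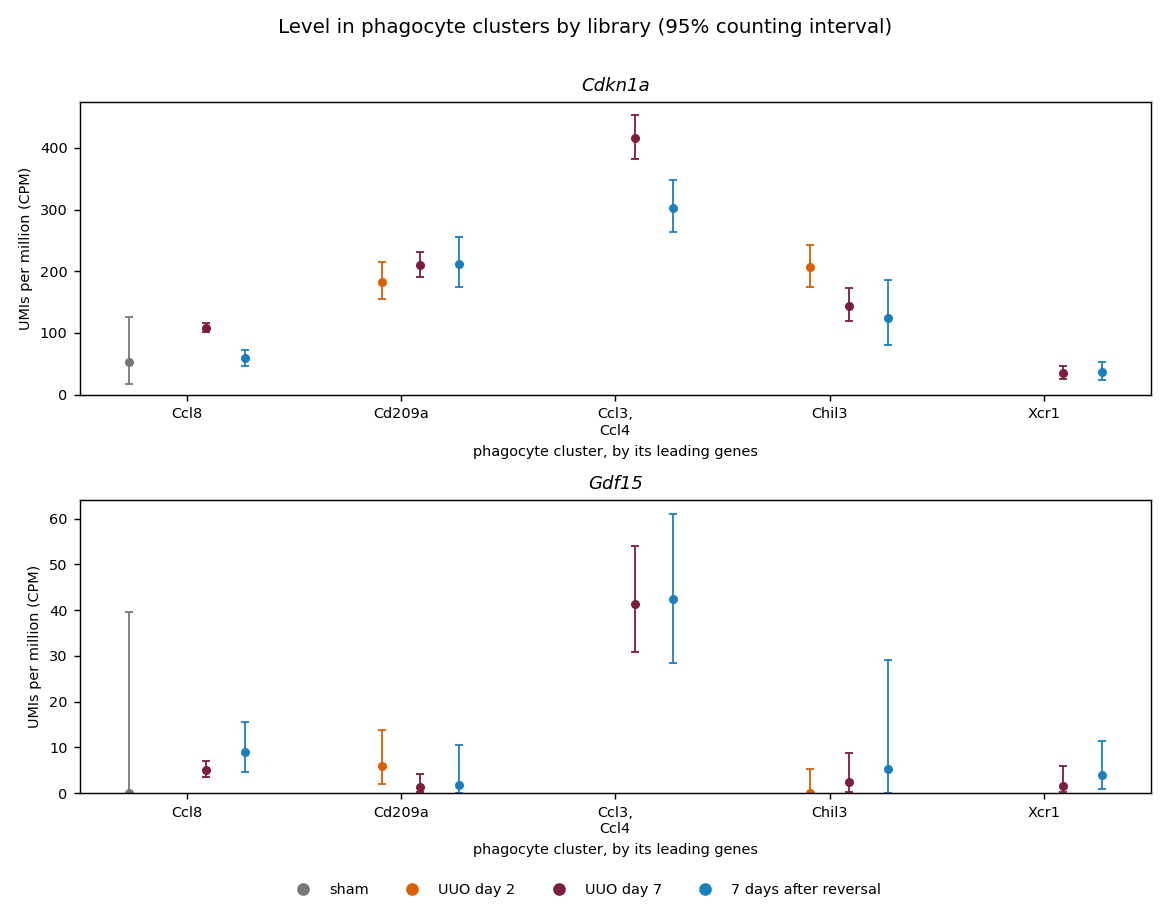
Level of Cdkn1a and Gdf15 in CPM in 5 phagocyte clusters, by library, where a cluster had at least 30 cells; bars are exact Poisson 95% intervals for counting error. Cdkn1a spread from 34.8 CPM (Xcr1-led) to 416 CPM (Ccl3- and Ccl4-led) at day 7, and Gdf15 was at 41.3 CPM in the latter cluster.

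Other genes of the pathway were read from listed sets. In the proximal tubule at day 2 against sham, 7 of 16 p53 targets of arrest and repair were past 2-fold higher and 0 lower, led by the antiproliferative gene Btg2 (27 against 3.55 CPM, 2.62) and the cell cycle checkpoint gene Sfn (11.4 against 1.04 CPM, 2.60). The median of that list was 0.94, against 0.32 over all genes, of which 12.5% were higher. In the same sums 9 of 9 dissociation and immediate-early genes were higher, as were the summed phagocyte markers. The mitochondrial share was 23.9% against 34.3%, and TMM scaling shifted every ratio by -0.40. The part of these in the list's change was not tested. Of 11 death targets 3 were higher, all pro-apoptotic: Bbc3 (1.84), Pmaip1 (1.38) and the receptor gene Fas (1.26). Of 12 regulators of p53 only the phosphatase gene Ppm1d was higher (1.05), and the list's median of 0.46 lay near that of all genes. For reversed against day 7, 6 of 15 arrest and repair targets, 5 of 13 death targets and 0 of 13 regulators were lower, beside 12.1% of all genes, led by Btg2 (-1.98) and the growth arrest gene Gadd45a (-1.79), with 8 of 9 dissociation and immediate-early genes also lower. The summed phagocyte markers were lower there too, and the mitochondrial share was 29% against 16.3%. TMM scaling shifted every ratio by 0.40, and the part of these in the lists' change was not tested. Btg2 and Gadd45a are also known as genes that respond quickly to stress.

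Of listed genes that senescent cells secrete or show, 8 of 12 were past 2-fold higher at day 2 in the proximal tubule (median 1.86), beside 12.5% of all genes, and 7 of 14 in the other segments (median 1.53), beside 6.72%, with 0 lower in either. Those called were led by the neutrophil chemokine Cxcl1 (35.8 CPM against 0 in the proximal tubule), the monocyte chemokine Ccl2, the adhesion gene Icam1 and the protease inhibitor Timp1. These genes are also general genes of inflammation, and phagocyte markers were higher in the same sums. Of cell cycle genes, 7 of 10 were past 2-fold higher at day 2 in each tubule class, beside the same shares of all genes, led by Top2a in the proximal tubule (13.2 against 0.104 CPM, the latter from a single UMI) and Ccnb2 in the other segments (12.3 CPM against 0). In the proximal tubule a cluster led by cell cycle genes held 13 of the 630 day 2 cells and 1 of the 3018 sham cells, and without it, a choice made after seeing the data, 3 of 7 cell cycle genes were called and Cdkn1a was still at 1.02. At day 7 against day 2, where Cdkn1a was higher again in the proximal tubule, 1 of 10 cell cycle genes was higher and 3 lower, but without that cluster 2 of 8 were higher and 0 lower, with Cdkn1a at 1.45. Cdkn1b, the p27 inhibitor, was lower in the other segments at day 2, at 19.9 against 46.3 CPM (-1.18), and was at 46.8 CPM again at day 7.

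Stress genes that share inducers with Gdf15 were higher in 3 of 5 at day 2 in the proximal tubule, where 12.5% of all genes were: the asparagine synthetase gene Asns (2.57) and the transcription factor genes Atf3 (2.23) and Ddit3 (1.89). In the other segments, where Gdf15 was higher as well, 1 of 7 was (Asns, 2.46), beside 6.72% of all genes. Of the dissociation and immediate-early genes, 9 of 9 were past 2-fold higher at day 2 in the proximal tubule and 1 of 9 in the other segments, against the same shares of all genes. In the other segments after reversal 5 of 12 death targets were higher against sham, led by Casp1, Bbc3 (1.98) and Pmaip1 (1.86), with Bbc3 at 14.3 against 2.89 CPM, beside 9.72% of all genes. In the same sums the mitochondrial share was 17.1% against 27.9% and the median ratio over all genes was 0.20. TMM scaling shifted every ratio by -0.16, and the part of these in the list's change was not tested. The regulators of p53 had 0 of 14 past 2-fold there at day 2.

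The genes most like each member were found from Pearson's correlation of log2 levels over the 48 sums, among 6360 genes with a mean of at least 20 CPM. Cdkn1a was most like Bnip2 (0.901), Gnb2 (0.897) and Tpm4 (0.892), Trp53 like Tubb5 (0.919), Bax like Gnai2 (0.944) and Mdm2 like Itpkb (0.79). Gdf15 was most like the tubule genes Stxbp6 (0.798), Pax8 (0.785), which encodes a nephric transcription factor, and Lsr (0.767). Between the members, Bax and Trp53 were at 0.863, Bax and Cdkn1a at 0.799 and Cdkn1a and Trp53 at 0.754, while Cdkn1a and Gdf15 were at -0.05. The sums share libraries and cell classes, so these values are descriptions.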

How the data were processed

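Droplet libraries of 4 conditions were analysed, each from 3 pooled mice. The deposited matrices hold raw, unnormalized UMI counts made by the authors. Cell Ranger and STAR with GRCm38 (mm10) are named in the submitters' processing notes, without versions. The Smart-seq2 sample was not used here. The 8 genes and all lists were chosen with earlier results of these data known.

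Cells needed 200 genes or more, and those above 50% mitochondrial UMIs were left out. These limits removed 398, 60, 3 and 45 cells under 200 genes and 1607, 472, 54 and 414 over 50%, in the order sham, day 2, day 7, reversed. Scrublet's automatic threshold marked 6, 8, 2 and 25 cells, so the highest scores were removed at 0.8% per 1000 cells (187, 48, 160 and 96). Cells were clustered without the 8 genes (2000 variable genes, 30 components, 15 neighbours, Leiden resolution 1) into 33 clusters, named from marker genes. UMIs were summed per class and library. CPM intervals are exact Poisson, share intervals Clopper-Pearson, and ratio intervals exact conditional binomial, all at 95%. The ratio rule was run on simulated counts with counting error alone. That run cannot show how the rule behaves where mice or libraries differ. Genes were named as the 8 members, plus at most 4 per list and comparison with the largest ratio past 2-fold. A phagocyte cluster is counted in its class but not reported here by itself. No p-value was computed.

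Alternatives were TMM factors (edgeR 4.0.16), size factors (DESeq2 1.42.0), nuclear-encoded UMIs only, a pseudocount of 10 CPM, no UMI minimum, at most 20% mitochondrial UMIs, no doublet removal, thinning to 1000 UMIs, equal weight per cell, a per-cell marker gate and subtraction of free RNA. Tools were Python 3.11.15, scanpy 1.11.5, scikit-learn 1.9.0, leidenalg 0.10.2, scipy 1.17.1, R 4.3.3.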

Additional observations from a re-analysis of the deposited data

Results flagged for a closer look

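Gdf15 moved in opposite directions after reversal in phagocytes and in the proximal tubule. The log2 ratio of reversed against day 7 was 1.6 in phagocytes and -1.57 in the proximal tubule, each from 1 library per time point. With cells thinned to 1000 UMIs the phagocyte ratio was 0.61. With at most 20% mitochondrial UMIs the proximal tubule ratio was -0.70. Both values kept their direction and lost the call. The difference between the classes was not tested. Without 1 phagocyte cluster that is not described by itself the phagocyte ratio was 0.76 [0.31, 1.35], in the same direction and below 2-fold.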

How the results depend on the processing

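Leaving out a replicate was not possible, and no paired analysis was possible because each time point has 1 library. Of 376 counts of members under an alternative, 343 stayed within 1.5 times the reported count and 33 did not. In the proximal tubule the count higher at day 2 was 1 (Gdf15) with at most 20% mitochondrial UMIs, and 1 (Cdkn1a) was lower with free RNA subtracted; 1 (Ccng1) was lower at day 7 after thinning. For reversed against day 7, 1 (Mdm2) was higher after thinning, and the count lower was 0 at 20% mitochondrial UMIs and 1 (Gdf15) with the marker gate, nuclear UMIs, TMM, size factors or a pseudocount of 10. Reversed against sham had 1 (Gdf15) with TMM, size factors or thinning and 0 with a pseudocount of 10. In the other segments the count higher at day 2 was 0 at 20% mitochondrial UMIs and 1 (Gdf15) with segments weighted equally (chosen after seeing the data); at day 7 it was 0 with the gate, a pseudocount of 10 or equal cells; after reversal against sham 0 at 20% mitochondrial UMIs or with the gate. Endothelium had 1 (Cdkn1a) at day 2 after thinning and 1 (Trp53inp1) at day 7 with the gate or the Cldn5-led cluster added (chosen after seeing the data). Phagocytes had 1 (Cdkn1a) at day 2 with TMM or size factors, 0 at day 7 with a pseudocount of 10, thinning or equal cells, 0 for reversed against day 7 with a pseudocount of 10 or thinning, and 1 (Gdf15) for reversed against sham with the gate or equal cells. Of the ratios, 305 kept their direction and call, 92 lost the call without reversing (1 of them, Cdkn2a in the other segments at day 7, at 0 with cells thinned), and 3 reversed, all of Cdkn1a: -2.11 in the proximal tubule at day 2 with free RNA subtracted, 0.155 there for reversed against day 7 at 20% mitochondrial UMIs, and -0.718 in the thin limb for reversed against sham with the gate. The causes were not tested. Subtraction of free RNA left no Cdkn1a in the proximal tubule at day 2, so the size of -2.11, counted above as lower, was set by the pseudocount. Sham proximal tubule cells fell from 3018 to 207 at 20% mitochondrial UMIs, which limits that setting. The 7 of 10 cell cycle genes called in the proximal tubule at day 2 were 3 of 7 without its cell-cycle-led cluster (chosen after seeing the data), where fewer genes reached 10 UMIs. Without 1 phagocyte cluster not described by itself (chosen after seeing the data), 0 members were called there for reversed against day 7.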
